A study of Mus musculus with 141 samples.

Results

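The distal nephron transport genes are 9 genes that encode the transporters, channels and carrier proteins of the renal tubule from the thick ascending limb onward: *Umod*, *Slc12a1*, *Slc12a3*, *Kcnj1*, *Scnn1a*, *Scnn1b*, *Scnn1g*, *Calb1* and *Trpv5*. They were taken by name and no measured value entered the rule, although earlier results of these data were known when they were chosen. All 9 were found among the 24423 genes of every file. Expression was measured by RNA-seq in kidney, lung and liver of 47 Collaborative Cross strains, which are recombinant inbred mice that each carry a mosaic of the same founder genomes. Each strain was represented by 1 adult male aged 8 to 12 weeks, so that the 3 groups of 47 libraries share their animals and a strain cannot be told apart from its mouse. All mice ate the NTP 2000 diet, lived on a 12-h cycle of light and dark, and spent 6 h a day on weekdays in exposure chambers that delivered clean air only. All were killed by bleeding under deep nembutal anaesthesia (100 mg/kg). No treatment or engineered allele separates the groups, whole organs were used, and fewer cells of a type cannot be told apart from less RNA per cell.

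The distal nephron adjusts the salt, potassium and calcium that leave in the urine. In the thick ascending limb, the cotransporter NKCC2 (*Slc12a1*) takes up sodium, potassium and chloride, the channel ROMK (*Kcnj1*) returns potassium to the lumen, and uromodulin (*Umod*) is secreted into the urine. The distal convoluted tubule takes up sodium and chloride through NCC (*Slc12a3*). Farther along, the epithelial sodium channel ENaC, built from the subunits alpha (*Scnn1a*), beta (*Scnn1b*) and gamma (*Scnn1g*), reabsorbs sodium under the control of aldosterone, while calcium enters through TRPV5 (*Trpv5*) and is carried across the cell by calbindin-D28k (*Calb1*). ENaC also clears fluid from the airways and air spaces of the lung, so its subunits are the members with a known role in a second organ studied here.

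On build NCBIM37, *Slc12a1* lies on chromosome 2 from 124978241 to 125055738, *Calb1* on chromosome 4 from 15808411 to 15835211, and *Slc12a3* on chromosome 8 from 96853092 to 96890113. *Kcnj1* spans 32180003 to 32206777 on chromosome 9. *Trpv5* (41602172 to 41630768) and *Scnn1a* (125271358 to 125294958) are both on chromosome 6. *Umod* lies on chromosome 7 from 126606380 to 126622769, and the same chromosome holds *Scnn1g* (128877993 to 128911989) and *Scnn1b* (129008591 to 129062029) on the forward strand with 96601 bases between them. All 9 spans are those of the whole gene, exons and introns included, in GENCODE vM1.

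The 250 bases before the transcription start are shown for the 3 genes of the thick ascending limb, because *Slc12a1* correlated with both others across kidneys in the results that follow. They come from RefSeq on GRCm38.p6, which held an entry for 7 of the 9 members, and are written 5′ to 3′ on the strand of the gene: chr7:119479263-119479512 (reverse strand) for *Umod*, chr2:125152350-125152599 (forward strand) for *Slc12a1* and chr9:32393735-32393984 (forward strand) for *Kcnj1*. Capitals mark GTTAAT, letters found in sites of the kidney transcription factors of the HNF1 family. The RefSeq start of *Kcnj1* lies inside the span given above, so its window is not upstream of the whole gene.
Umod: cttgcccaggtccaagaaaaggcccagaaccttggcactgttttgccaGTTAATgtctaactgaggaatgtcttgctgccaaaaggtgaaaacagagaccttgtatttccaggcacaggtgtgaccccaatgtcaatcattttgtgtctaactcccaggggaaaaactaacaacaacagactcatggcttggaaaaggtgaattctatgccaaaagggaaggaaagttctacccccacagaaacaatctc
Slc12a1: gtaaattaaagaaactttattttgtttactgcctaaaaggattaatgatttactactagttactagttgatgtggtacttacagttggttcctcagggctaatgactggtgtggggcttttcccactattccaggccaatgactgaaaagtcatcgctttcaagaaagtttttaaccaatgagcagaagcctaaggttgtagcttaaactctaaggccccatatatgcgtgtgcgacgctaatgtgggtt
Kcnj1: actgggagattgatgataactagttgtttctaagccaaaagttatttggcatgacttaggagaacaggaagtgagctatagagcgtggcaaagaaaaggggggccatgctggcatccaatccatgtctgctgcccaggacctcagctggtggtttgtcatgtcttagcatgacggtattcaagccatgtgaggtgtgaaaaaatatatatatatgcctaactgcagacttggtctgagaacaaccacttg
Searched on both strands, GTTAAT was found in 1 place, in the window of *Umod* starting 202 bases before the start, and in none of the windows of the other 6 members with an entry. Of 32851 promoter windows of the same length, 6.43% held it. The letters TATAAA were found in the windows of *Slc12a3* (32 bases before the start) and *Trpv5* (43 bases before it), against 12.4% of all windows. These matches describe the letters alone and are no evidence of binding.

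Total counts per library ranged from 1738046 to 42158454 with medians of 8245850 in kidney, 9338124 in lung and 10423382 in liver. Libraries with at most 3 counts of a gene are called unresolved for it, a limit that speaks to counting error alone. The authors counted only uniquely aligned reads, and the number of transcripts that the files give for a gene went with its level. In kidney, 50.8% of the 18311 genes with 1 transcript had a median above 1 TPM (a level scaled by transcript length and library depth), against 24.5% of the 6112 genes with more than 1. *Scnn1a*, *Scnn1g*, *Calb1* and *Trpv5* have 1 transcript in the files, *Umod*, *Slc12a1*, *Slc12a3* and *Kcnj1* have 2, and *Scnn1b* has 3. How reads shared by the transcripts of a gene were treated is not given in the sources used here and its part in the levels was not tested, so the order of the members within a tissue is a description of the deposited values. Comparisons of the same gene between tissues or strains use the same annotated transcripts. Whether tissues or strains differ in their use of these transcripts, and so in the reads counted, was not tested.

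Of the members, *Calb1* had by far the most TPM in kidney. It ranged from 28.8 in CC024 to 429 in CC061 with a median of 179, and exceeded *Scnn1a*, the next gene, in 47 of 47 mice. *Scnn1a* (13.7 to 50.2, median 29.99), *Scnn1g* (14.1 to 41.4, median 24.6), *Slc12a1* (6.04 to 96.1, median 21.1) and *Umod* (2.74 to 87.9, median 18.7) followed and overlapped widely. Neighbours in this order changed places often: *Scnn1a* exceeded *Scnn1g* in 34 mice, *Scnn1g* exceeded *Slc12a1* in 27, and *Slc12a1* exceeded *Umod* in 25. Levels were lower for *Trpv5* (4.66 to 21.7, median 8.63), *Kcnj1* (2.30 to 22.2, median 6.66) and *Slc12a3* (0 to 10.4, median 3.54). *Kcnj1* exceeded *Slc12a3* in 42 of 47 mice and was below *Trpv5* in 32. *Scnn1b* closed the order with 0 to 0.68 TPM (median 0.14), and 42 of its 47 kidney libraries held at most 3 counts, so its kidney level is not resolved library by library.

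**Figure D1:**
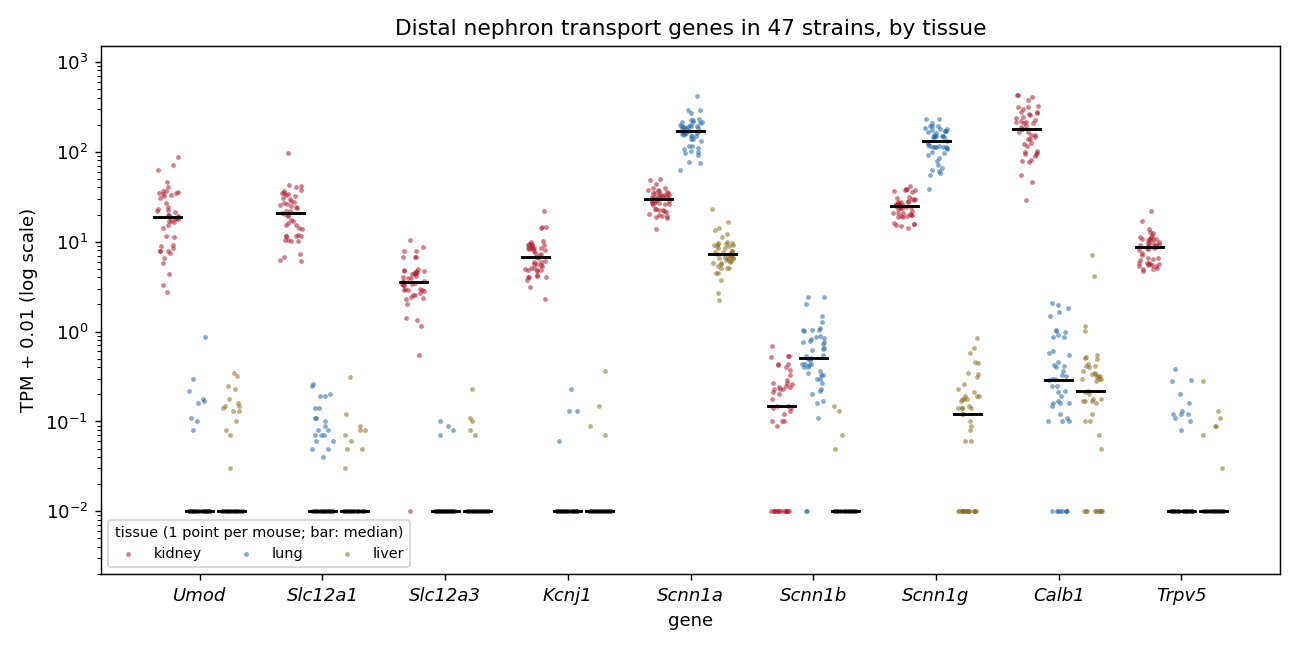
TPM of the 9 genes in each of the 47 mice, by tissue. The y axis is TPM + 0.01 on a log scale, each point is a library and black bars are medians. The 6 members other than the ENaC subunits sit near 0 in lung and liver, while *Scnn1a* and *Scnn1g* are higher in lung (medians 171 and 133 TPM) than in kidney.

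*Umod*, *Slc12a1*, *Slc12a3*, *Kcnj1*, *Calb1* and *Trpv5* were detected in kidney and were at or near 0 elsewhere. For *Umod*, 38 of 47 lung libraries and 32 of 47 liver libraries held no read, and the highest value was 0.86 TPM in lung (CC001) and 0.34 TPM in liver (CC033), below the lowest kidney. *Slc12a1* reached 0.25 TPM in lung and 0.30 TPM in liver, *Kcnj1* 0.22 and 0.35, and *Trpv5* 0.37 and 0.27. The kidney range did not overlap that of lung or liver for any of these 4 genes. How many of all genes show such a gap between organs was not counted, here or below, so these gaps are a description. *Slc12a3* was below 0.09 TPM in every lung library but 1, which was at 0.09, and its kidney value exceeded the lung value of the same mouse in 46 of 47, the exception being CC057, where the kidney library also held 0 counts. *Calb1* was found more often, at up to 2.06 TPM in lung (CC001) and 7.11 TPM in liver (CC036), but even these were below the lowest kidney value.

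With counts summed over the 47 libraries of a tissue, the lung held a small percentage of the kidney level of each of these genes. It was 0.121% for *Umod* (15 counts, exact 95% interval 0.0677 to 0.200%, counting error only) and 0.126% for *Slc12a1* (31 counts, 0.0856 to 0.179%). For *Calb1* it was 0.165% (194 counts, 0.143 to 0.190%) and for *Trpv5* 0.297% (14 counts, 0.162 to 0.4995%). *Slc12a3* (0.146%) and *Kcnj1* (0.143%) rested on 4 and 7 counts. The corresponding liver percentages ran from 0.131% for *Slc12a1* to 0.469% for *Slc12a3*. Markers of the proximal tubule, a segment that neither organ contains, were present at similar percentages: over 9 such genes the median was 0.212% in lung (0.0962 to 2.98%) and 0.304% in liver (0.163 to 11.6%). The lung library with the highest *Umod* and *Calb1* (CC001) also had the highest percentage of the proximal tubule markers, 0.983% against a median of 0.130% over the lung libraries. In liver, *Calb1* was highest in CC036, the shallowest library with 1738046 counts, where the proximal tubule markers stood at 1.61%, the third highest of 47. On TMM-scaled CPM, the liver libraries with the highest *Umod* (CC033, on 1 count) and *Slc12a1* (CC035, on 4 counts) had the 2 highest percentages of these markers, 5.44% and 4.42%, while the lung library with the highest *Slc12a1* (CC015, on 1 count) was the fifth of 47 at 0.347%. Member and marker values of a library are divided by the same scaled library size, so a small TMM factor raises both together. For *Umod* in liver, 1 count made 1.70 CPM in CC033, above the CPM from 5 counts in CC025. These coincidences are therefore partly built in. Whether reads of kidney libraries account for the traces of these genes in lung and liver was not tested.

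Tissues were compared with limma-voom over 12127 genes, on counts scaled to library size (CPM) after TMM normalization. A gene was called at q ≤ 0.1 (Benjamini-Hochberg) when its log2 fold change reached 1 in either direction. Higher in kidney than in lung were 20.6% of the tested genes, and higher in lung 25.5%. The 6 genes detected mainly in kidney were called higher in kidney than in lung, with q of at most 1.2e-61. They pass the low-count filter only through kidney and so had to differ, and their fitted fold changes depend on the value given to a count of 0, so the percentages from summed counts are the better measure of size. The same 6 genes were called higher in kidney than in liver, where 20.8% of tested genes were higher in kidney and 15.6% higher in liver.

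*Scnn1a* and *Scnn1g* were higher in lung than in kidney, and this was so in 47 of 47 mice for each. *Scnn1a* ranged from 62.2 TPM (CC015) to 416 TPM (CC037) in lung with a median of 171, so that the lowest lung value was above the highest kidney value of 50.2 TPM. *Scnn1g* ranged from 38.3 TPM (CC015) to 231 TPM (CC033) with a median of 133, and its range overlapped that of kidney at the edge, where the highest kidney was at 41.4 TPM. On TMM-scaled counts, lung had 135 ± 43.3 CPM of *Scnn1a* (SD, n = 47) and kidney 34.3 ± 10.5 CPM, a log2 fold change for kidney against lung of -2.00 (SE 0.10, limma-voom q = 6.9e-37). For *Scnn1g* the values were 86.1 ± 17.2 and 24.5 ± 5.64 CPM, a log2 fold change of -1.84 (SE 0.07, limma-voom q = 5.1e-46). Both differences exceed the spread between mice.

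*Scnn1b* was low in both organs. In lung it ranged from 0 to 2.42 TPM (CC006) with a median of 0.50, and 21 of 47 libraries held at most 3 counts. In the same mouse the lung value exceeded the kidney value in 40 of 47 in TPM and in 35 of 47 in TMM-scaled CPM. Summed over libraries there were 286 counts in lung and 77 in kidney, a lung level of 266% of that of kidney after TMM scaling (exact 95% interval 206 to 347%, counting error only). The gene did not pass the low-count filter. Fitted without that filter, its log2 fold change for kidney against lung was -0.97 (SE 0.22, limma-voom q = 6.2e-05), which stayed under the fold-change threshold.

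Liver differed among the subunits. *Scnn1a* was found in all 47 liver libraries, from 2.26 TPM (CC015) to 23.2 TPM (CC068) with a median of 7.21 and 5549 counts in all. *Scnn1g* had a liver median of 0.11 TPM with 79 counts in all, and *Scnn1b* had 5 counts. Of the tested genes, 31.0% were higher in lung than in liver and 23.9% higher in liver, and *Scnn1a* was among the former with a log2 fold change for lung against liver of 2.97 (SE 0.10, limma-voom q = 8.9e-51). *Scnn1g* in liver amounted to 1.05% of the kidney level (exact 95% interval 0.833 to 1.31%, counting error only), and it exceeded the liver value in 47 of 47 kidneys and lungs. For *Scnn1a*, kidney exceeded liver in TPM in 47 of 47 mice and in TMM-scaled CPM in 42, with a log2 fold change of 0.97 (SE 0.10, limma-voom q = 4.4e-16) that lies just under the fold-change threshold. This call depended on the scaling: it passed at 1.08 with DESeq2 size factors, at 1.94 with total counts and at 1.83 on log2(TPM + 1), and at 1.07 without the strains CC020, CC032 and CC036. Relative to the median of all tested genes under each scaling, the difference was 0.97 with TMM and 0.97, 0.99 and 1.11 with the other 3 scalings, since that median moved to 0.11 with DESeq2 size factors, 0.95 with total counts and 0.72 on log2(TPM + 1).

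The ratio of alpha to gamma was compared within mice, on log2(TPM + 0.1). *Scnn1a* exceeded *Scnn1g* in 34 of 47 kidneys and 40 of 47 lungs, and the median ratio of their TPM was 1.14 in kidney (0.659 to 2.13) and 1.26 in lung (0.599 to 3.62). Expressed as log2, the ratio was 0.23 ± 0.41 (SD, n = 47) in kidney and 0.39 ± 0.43 in lung, a difference of -0.16 (standard error 0.09) that did not pass the test (permutation of the tissues within mice, p = 0.0902, q = 0.0902 over 3 ratios). The lung had the higher ratio in 33 mice. Without the mice with the shallowest kidney or lung libraries, the difference was -0.05 (37 mice left, permutation q = 0.585).

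The ratio of alpha to beta was lower in kidney than in lung, with a difference of -1.10 on the log2 scale (standard error 0.21, permutation p = 2e-05, q = 4.5e-05, lower in kidney in 36 of 47 mice), and that of beta to gamma was higher in kidney by 0.94 (standard error 0.19, permutation p = 3e-05, q = 4.5e-05, higher in 36 of 47). Since most kidney libraries hold at most 3 counts of *Scnn1b*, the size of both depends on the constant added to 0. Adding 1 gave -2.01 and 1.84. From counts summed over libraries, with no constant added, the differences were -0.64 (95% interval -1.005 to -0.28, counting error only) and 0.51 (0.14 to 0.87).

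**Figure D2:**
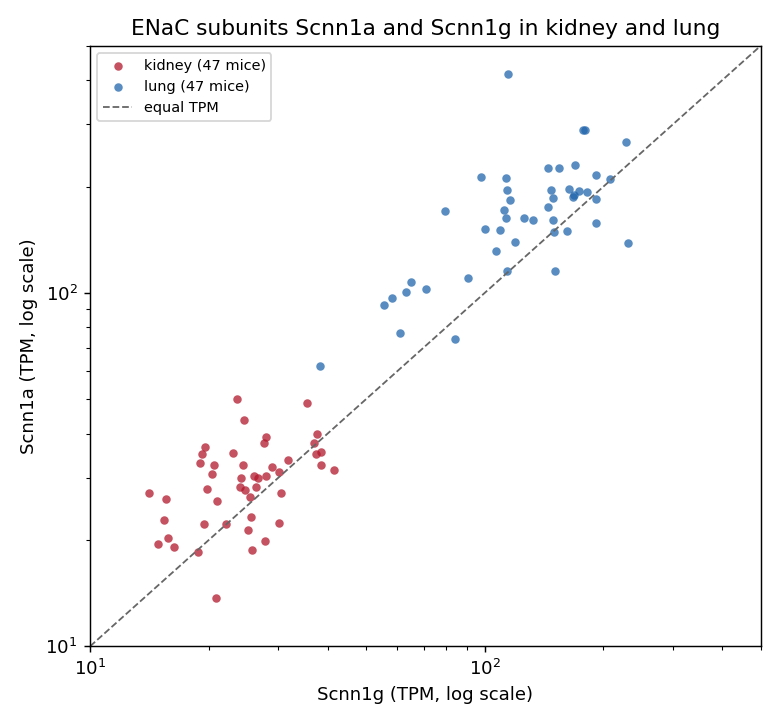
TPM of *Scnn1a* (y axis) against *Scnn1g* (x axis), both on log scales, for 47 kidney and 47 lung libraries. The dashed line marks equal TPM. Lungs lie above and to the right of kidneys, and the points of both organs lie around or just above the line.

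Kidney levels of the 8 resolved members varied across the 47 mice by more than counting alone would give. As TMM-normalized TPM, the coefficient of variation across 47 kidneys was 65.6% for *Umod*, where counting alone would give 11.1%, and 52.3% for *Slc12a1* (7.35% from counting). It was 48.1% for *Calb1* (3.10%), 47.8% for *Slc12a3* (20.9%), 38.4% for *Kcnj1* (14.5%) and 36.4% for *Trpv5* (13.7%). For *Slc12a3*, the value from counting leaves out CC057, which held 0 counts, while the 47.8% includes it. *Scnn1a* (30.2%, with 6.38% from counting) and *Scnn1g* (22.7%, with 7.36%) varied least. The median over the 10772 genes with TMM-normalized TPM above 1 in more than 50% of kidneys was 25.6%, and *Umod* was above 90.6% of these genes. With 1 mouse per strain, this spread holds differences between animals, dissections and library preparations as well as between strains, which cannot be told apart. In lung the coefficient of variation was 31.6% for *Scnn1a* and 19.6% for *Scnn1g*, against a median of 26.3% over 12389 genes.

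The kidney of CC032 stood apart for several members and marker lists, those of the thick ascending limb among them. It had the highest *Slc12a1* (96.1 TPM, against 42.6 TPM for the next strain, CC053), the highest *Kcnj1* (22.2 TPM) and the highest *Scnn1g* in TPM, and the second highest *Umod* (70.5 TPM). With TMM normalization it was still first for *Slc12a1* and *Kcnj1*, but the fifth for *Scnn1g* and the third for *Umod*. The same library ranked first of 47 for marker lists of the thick ascending limb, the principal cell, the intercalated cell and the medulla, and 46th for the proximal tubule. The kidney of CC020 was lowest of 47 for *Umod* (8 counts) and *Scnn1a* and for the lists of proximal tubule, thick ascending limb, distal convoluted tubule and intercalated cell, but highest for *Trpv5* (21.7 TPM, 63 counts). It had 3717587 counts, the 44th of 47. Correlations whose call changed without either library are given with that value.

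The filter that the study applied before mapping of expression traits, rebuilt here, keeps a gene in a tissue when TMM-normalized TPM is above 1 in more than 50% of libraries and no single library is set apart by a K-means split. In kidney, 8 members passed the level and 7 passed both steps: *Scnn1b* failed the first, and *Slc12a1* was removed because CC032, at 77.8, was set apart from the next value of 39.9. In lung, *Scnn1a* and *Scnn1g* passed, and in liver *Scnn1a* alone. Of all genes, 44.1% passed the level in kidney, 50.7% in lung and 36.9% in liver. With a threshold of 0.5, *Scnn1b* passed in lung as well.

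Members were compared with each other across kidneys on rank inverse normal values of TMM-normalized TPM. *Scnn1b* was left out for its low counts, which gave 28 pairs of 8 genes, and 5 pairs passed a q of 0.05 over these pairs. The share of pairs of other kidney genes that would pass was not computed. *Slc12a1* and *Kcnj1*, which work side by side in the thick ascending limb, rose and fell together (r = 0.509, permutation p = 2.7e-04, q = 0.00756, rho 0.494, permutation p of rho 5.7e-04). Leaving out the 2 most distant strains gave r = 0.396. *Umod* and *Slc12a1* had r = 0.451 (permutation p = 0.00146, q = 0.0204, rho 0.365, permutation p of rho 0.0120, r with the 2 most distant strains left out 0.475). *Umod* and *Kcnj1* had r = 0.362 and did not pass (permutation p = 0.0125, q = 0.0585, rho 0.362, permutation p of rho 0.0128, r with the 2 most distant strains left out 0.389).

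*Trpv5* was lower where *Slc12a1* was higher (r = -0.414, permutation p = 0.00359, q = 0.0335, rho -0.400, permutation p of rho 0.00511, r with the 2 most distant strains left out -0.473). On TPM without TMM this correlation was 0.0951. *Kcnj1* and *Scnn1g* (r = 0.389, permutation p = 0.00666, q = 0.0466, rho 0.340, permutation p of rho 0.0195, r with the 2 most distant strains left out 0.265) and *Scnn1a* and *Scnn1g* (r = 0.377, permutation p = 0.00872, q = 0.0488, rho 0.378, permutation p of rho 0.00892, r with the 2 most distant strains left out 0.356) were just past the threshold.

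The number of pairs past the threshold was sensitive to the setting. With Spearman's rho 1 pair passed, *Slc12a1* and *Kcnj1* (q = 0.0160), and the same pair was the only one to pass without CC020 (r = 0.480, q = 0.0207). The other 4 pairs lost their call without CC020: *Slc12a1* and *Trpv5* at r = -0.332 (q = 0.101), and *Umod* and *Slc12a1* (r = 0.407), *Kcnj1* and *Scnn1g* (r = 0.391) and *Scnn1a* and *Scnn1g* (r = 0.384) each at q = 0.0624. Without CC032, *Kcnj1* and *Scnn1g* lost it (r = 0.353, q = 0.0926), while *Slc12a1* and *Kcnj1* had r = 0.434 (q = 0.0381). After a linear fit on the means of the proximal tubule and medulla lists, its r fell to 0.248 (q = 0.217), and that of *Umod* and *Slc12a1* was 0.382 (q = 0.0899). The 1 pair that passed after this fit was *Slc12a1* and *Trpv5* (r = -0.446, q = 0.0490). On TPM without TMM, 17 pairs passed.

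**Figure D3:**
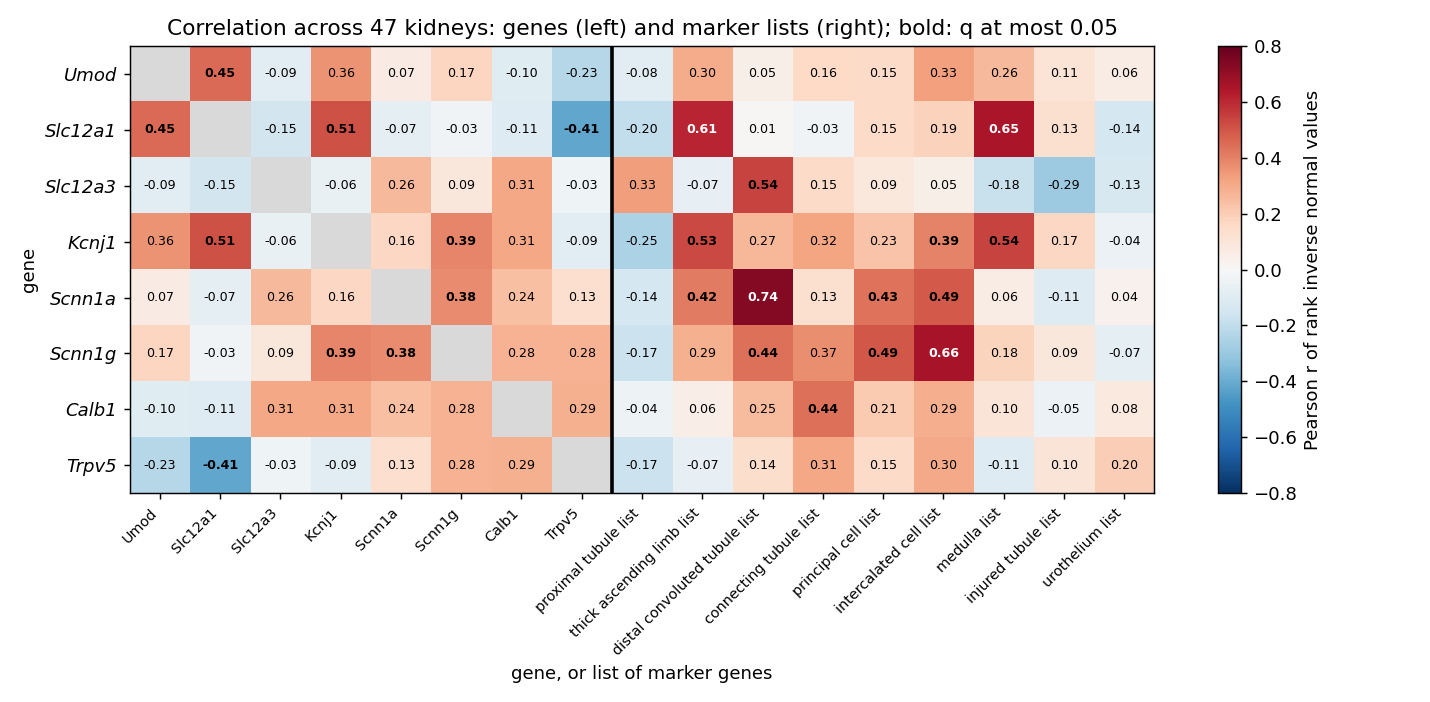
Pearson's r across 47 kidneys between 8 of the genes (left of the black line) and between each gene and the mean of a list of marker genes (right). Values in bold passed a q of 0.05. The thick ascending limb genes *Slc12a1* and *Kcnj1* stand out with the lists of the thick ascending limb and medulla, and *Scnn1a* with that of the distal convoluted tubule (r = 0.737).

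Lists of marker genes that contain none of the members were set beside these correlations. Of 72 pairs of a member and a list in kidney, 14 passed a q of 0.05, all with positive r. The share of all kidney genes that would pass with these lists was not computed. Genes and lists share depth and tissue composition, so the count is a description. *Slc12a1* followed the thick ascending limb list of 6 resolved genes (*Cldn16*, *Cldn19*, *Casr*, *Ptger3*, *Wfdc15b* and *Ppp1r1a*) with r = 0.607 (permutation p = 3e-05, q = 5.4e-04, rho 0.545, permutation p of rho 1.3e-04, r with the 2 most distant strains left out 0.526). *Kcnj1* did so with r = 0.530 (permutation p = 1.9e-04, q = 0.00195, rho 0.487, permutation p of rho 6.3e-04, r with the 2 most distant strains left out 0.473). With the medulla list, of which only *Slc14a2* and *Slc6a12* were resolved, r was 0.654 for *Slc12a1* (permutation p = 1e-05, the smallest that 100000 permutations can give, q = 2.4e-04, rho 0.624, permutation p of rho 2e-05, r with the 2 most distant strains left out 0.571) and 0.542 for *Kcnj1* (permutation p = 1.3e-04, q = 0.00156, rho 0.529, permutation p of rho 2.2e-04, r with the 2 most distant strains left out 0.449). *Umod* passed with no list, and its highest r was 0.327 with intercalated cell markers.

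*Slc12a3* followed the distal convoluted tubule list (7 resolved genes, among them *Trpm6*, *Egf* and *Wnk4*) with r = 0.539 (permutation p = 8e-05, q = 0.00115, rho 0.514, permutation p of rho 3.6e-04, r with the 2 most distant strains left out 0.503). *Scnn1a* passed with 4 lists. Its r was 0.737 with the distal convoluted tubule (permutation p = 1e-05, q = 2.4e-04, rho 0.716, permutation p of rho 1e-05, r with the 2 most distant strains left out 0.716) and 0.432 with principal cells (permutation p = 0.00233, q = 0.0140, rho 0.476, permutation p of rho 7.6e-04, r with the 2 most distant strains left out 0.437). It was also 0.493 with intercalated cells (permutation p = 3.7e-04, q = 0.00328, rho 0.488, permutation p of rho 5e-04, r with the 2 most distant strains left out 0.5005) and 0.418 with the thick ascending limb (permutation p = 0.00335, q = 0.0186, rho 0.390, permutation p of rho 0.00653, r with the 2 most distant strains left out 0.380), the last of which lost its call without CC020 (r = 0.340, q = 0.0751). Differences between these r were not tested. *Scnn1g* had its highest r with the intercalated cell list (r = 0.658, permutation p = 1e-05, q = 2.4e-04, rho 0.653, permutation p of rho 1e-05, r with the 2 most distant strains left out 0.622), ahead of principal cells (r = 0.494, permutation p = 4.1e-04, q = 0.00328, rho 0.443, permutation p of rho 0.00199, r with the 2 most distant strains left out 0.409) and the distal convoluted tubule (r = 0.440, permutation p = 0.00200, q = 0.0131, rho 0.470, permutation p of rho 0.00103, r with the 2 most distant strains left out 0.374). *Kcnj1* passed with intercalated cells (r = 0.394, permutation p = 0.00596, q = 0.0306, rho 0.320, permutation p of rho 0.0293, r with the 2 most distant strains left out 0.260), but not without CC032 (r = 0.329, q = 0.125) or without CC020 (r = 0.353, q = 0.0696). *Calb1* passed with the connecting tubule list of *S100g*, *Slc8a1* and *Atp2b1* (r = 0.439, permutation p = 0.00178, q = 0.0128, rho 0.468, permutation p of rho 0.00102, r with the 2 most distant strains left out 0.479).

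*Trpv5* passed with no list over 47 kidneys. Without CC020, whose kidney had the highest *Trpv5* beside the second lowest connecting tubule list, its r with that list was 0.475 (permutation p = 8.8e-04, q = 0.00634), against 0.309 with all strains. With the intercalated cell list, for which CC020 was lowest, it was 0.458 (permutation q = 0.00792), against 0.304. *Scnn1g* also passed with the connecting tubule list without CC020 (r = 0.374, q = 0.0467), against 0.369 (q = 0.0518) with all strains. The lists of proximal tubule, injured tubule (of which only *Lcn2* was resolved) and urothelium passed with no member. Without CC032, 13 of the 72 pairs passed, and without CC020 there were 15. The part that the amount of cortex and medulla in a piece of kidney plays in these correlations was not tested beyond the linear fit given with the pairs of members.

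**Figure D4:**
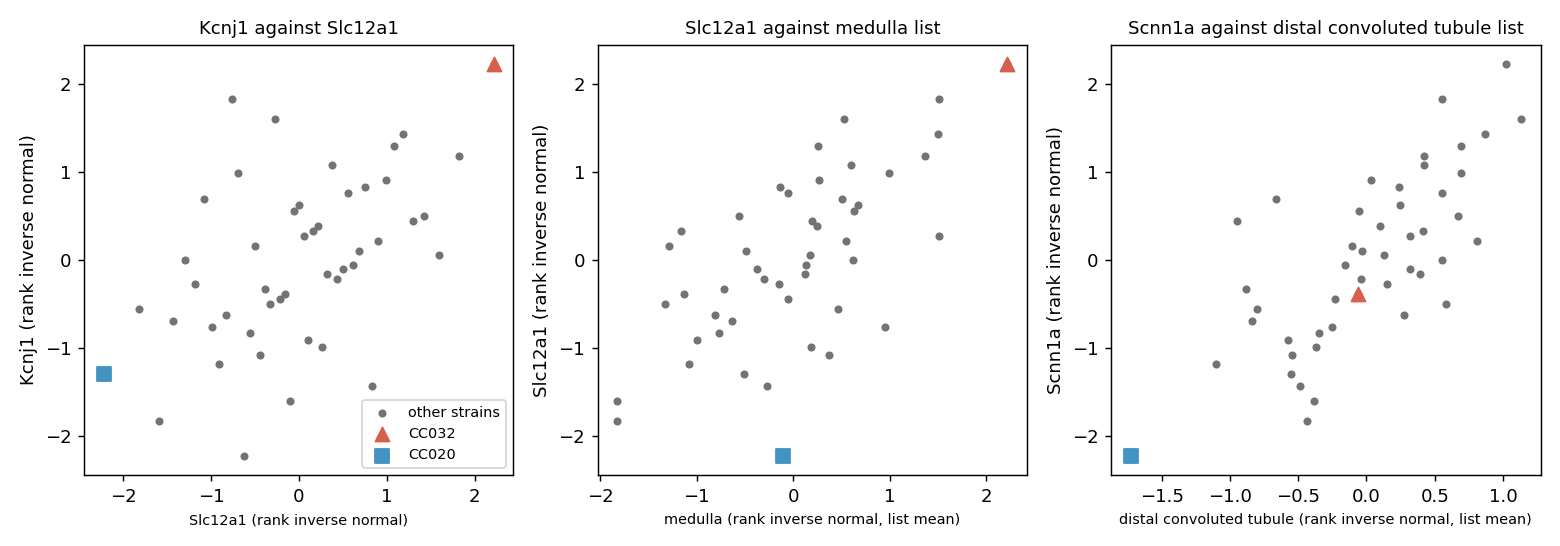
Rank inverse normal values of 47 kidneys for *Kcnj1* against *Slc12a1* (left), *Slc12a1* against the mean of the medulla list (middle) and *Scnn1a* against the mean of the distal convoluted tubule list (right). The triangle is CC032, at the upper right of the first 2 plots, and the square is CC020, lowest for *Slc12a1* and *Scnn1a* on this scale.

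In lung, no pair of ENaC subunits passed. *Scnn1a* and *Scnn1g* had r = 0.225 (permutation p = 0.128, q = 0.385, rho 0.278, permutation p of rho 0.0585, r with the 2 most distant strains left out 0.286). The r of the same pair was 0.377 in kidney, and the difference of 0.152 did not pass (permutation of the organs within mice, p = 0.451). On TPM without TMM the pair passed in lung (r = 0.620, q = 6e-05). None of 12 pairs of a subunit and a list of alveolar or airway markers passed in lung (lowest q = 0.552). No correlation between the strains' order in kidney and that in lung was detected for *Scnn1a* or *Scnn1g*. The r was 0.00684 for *Scnn1a* (permutation p = 0.964, q = 0.964, rho 0.00613, permutation p of rho 0.967, r with the 2 most distant strains left out 0.0965) and 0.0515 for *Scnn1g* (permutation p = 0.730, q = 0.964, rho -0.0289, permutation p of rho 0.847, r with the 2 most distant strains left out -0.119).

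The genes most like each member were found from Pearson's r of log2(TMM CPM + 1) across 47 kidneys among 10771 other genes, as a description with no test. The points share libraries, and with them depth and tissue composition. *Slc12a1* was closest to *Slc2a13* (r = 0.809) and *Slc5a3* (r = 0.782), both transporters of myo-inositol, and to *Mrps6* (r = 0.778), whose span on chromosome 16 contains that of *Slc5a3*, so that reads may be split between them. Without CC032 these values were 0.763, 0.725 and 0.705. *Kcnj1* was closest to *Etnk1* (r = 0.721), *Fam234b* (r = 0.719) and *Nudt4* (r = 0.672). *Scnn1a* was closest to *Iqsec1* (r = 0.743), to the basolateral potassium channel gene *Kcnj10* (r = 0.739) and to *Tns2* (r = 0.737). *Scnn1g* was closest to *Atp6v0d2* (r = 0.740), which encodes a subunit of the proton pump and belongs to the intercalated cell list, to *AA986860* (r = 0.642) and to the vasopressin receptor gene *Avpr1a* (r = 0.623). *Slc12a3* was closest to *Atp13a1* (r = 0.621), *Dennd3* (r = 0.618) and *Cox4i1* (r = 0.607), *Trpv5* to *Birc3* (r = 0.597), *Bgn* (r = 0.583) and *Rnu11* (r = 0.555), and *Umod* to *Gm16386* (r = 0.542), *Zfp930* (r = 0.542) and *Afm* (r = 0.523).

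The 3 genes most like *Calb1* in kidney, *Impad1* (r = 0.644), *4930412C18Rik* (r = 0.528) and *Alg2* (r = 0.494), all lie on chromosome 4 with *Calb1* itself, at distances of 11.1, 6.06 and 31.6 Mb. Of the genes searched that could be placed, 6.39% lie on that chromosome. Genes on the member's own chromosome were also among the closest for *Slc12a3* (*Atp13a1* and *Cox4i1* on chromosome 8, 24.5 and 26.3 Mb away, which holds 5.26% of the genes placed) and *Scnn1a* (*Iqsec1* on chromosome 6, 34.5 Mb away, with 5.01%). In lung, *Scnn1g* was closest to *Platr21* (r = 0.573), *Zmpste24* (r = 0.558) and *Olfr1342* (r = 0.527), and the latter 2 lie on chromosome 4, from 120731842 to 120770846 and from 118362067 to 118363068 on NCBIM37, whereas *Scnn1g* is on chromosome 7. Chromosome 4 holds 6.00% of the genes searched in lung that could be placed. *Scnn1a* was closest in lung to *Prr14* (r = 0.847), *Eif4ebp2* (r = 0.840) and *Wasf2* (r = 0.838).

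A list of 36 other genes that regulate or work beside these transporters was compared between kidney and lung, with 29 of them tested. Of these, 20 were higher in kidney, 3 were higher in lung and 6 were not called, beside 20.6% and 25.5% of all tested genes higher in kidney and in lung. Their median log2 fold change was 3.03, against -0.04 over all tested genes. Genes of the list that are near 0 in lung pass the low-count filter through kidney, so these counts are a description. Against liver, 22 of the 29 were higher in kidney and 1, *Tsc22d3*, in liver, beside 20.8% and 15.6% of all tested genes. Between lung and liver, 12 of the 29 were higher in lung and 5 in liver, beside 31.0% and 23.9% of all tested genes.

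The machinery on the blood side of the cell was higher in kidney throughout. All 4 tested chloride and potassium channel genes were called, among them *Bsnd*, which encodes the channel subunit barttin (36.9 ± 14.8 TPM in kidney and 0.0966 ± 0.159 TPM in lung, SD, n = 47). All 3 sodium pump genes were called as well, and *Atp1b1*, the gene of a subunit of this pump, had a log2 fold change for kidney against lung of 2.90 (limma-voom q = 3.9e-73). The thick limb genes *Casr*, the calcium-sensing receptor (7.67), and *Cldn16*, a claudin of the paracellular magnesium path (6.75), were among 3 tested and 3 called.

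Genes that act on NCC and ENaC were less uniform. Among the kinases and their ubiquitin ligase adaptors, *Wnk4* (32.4 ± 8.80 TPM in kidney and 5.55 ± 2.24 TPM in lung, log2 fold change 3.16), *Stk39* (1.59) and *Klhl3* (2.49) were higher in kidney, and 3 others were not called. Of the mineralocorticoid genes, *Hsd11b2*, which protects the receptor from glucocorticoid, was higher in kidney (52.7 ± 16.4 and 2.96 ± 1.48 TPM, log2 fold change 4.73, q = 7.3e-73 from limma-voom). The receptor gene *Nr3c2* had a log2 fold change of 0.00 (SE 0.05, limma-voom q = 0.97), and its direction depended on the scaling, since TPM was lower in kidney (21.2 ± 6.94) than in lung (31.0 ± 9.37), with kidney the higher in 10 of 47 mice. *Tsc22d3*, a target of glucocorticoid and mineralocorticoid, was higher in lung (51.4 ± 24.8 and 11.9 ± 6.84 TPM, log2 fold change for kidney against lung -1.65, q = 3.4e-30 from limma-voom). *Prss8*, a protease that activates ENaC, was higher in kidney (369 ± 103 and 93.4 ± 30.1 TPM, log2 fold change 2.53), the opposite direction from *Scnn1a* and *Scnn1g*. *Furin*, another such protease, was at 0.145 ± 0.194 TPM in kidney and was not tested. It has 2 transcripts, and genes with more than 1 had lower levels in these data, so this value is no evidence of absence.

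The genes for divalent ions had both directions. The magnesium channel *Trpm6* was higher in lung than in kidney in 47 of 47 mice (51.1 ± 23.7 and 13.4 ± 5.87 TPM, log2 fold change -1.42, SE 0.08, limma-voom q = 3e-32) and was low in liver (0.330 TPM on average), the same order of organs as *Scnn1g*. *Egf*, its hormone in the distal convoluted tubule, was found in kidney at 250 ± 85.7 TPM and in lung at 0.835 ± 0.552 TPM. Of the genes that work with *Trpv5* and *Calb1*, the calcium pump gene *Atp2b1* was higher in lung (-1.04, q = 3.4e-49 from limma-voom), while *S100g*, which encodes calbindin-D9k, was higher in kidney (1040 ± 430 and 191 ± 94.7 TPM, log2 fold change 3.03), as was the vitamin D receptor gene *Vdr* (4.74). *Aqp2*, the water channel of principal cells, had a log2 fold change of 7.32, and *Avpr2*, the vasopressin receptor that controls it, was at 0.305 ± 0.404 TPM in kidney and was not tested. *Avpr2* has 3 transcripts, so its low value is no evidence of absence either.

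**Figure D5:**
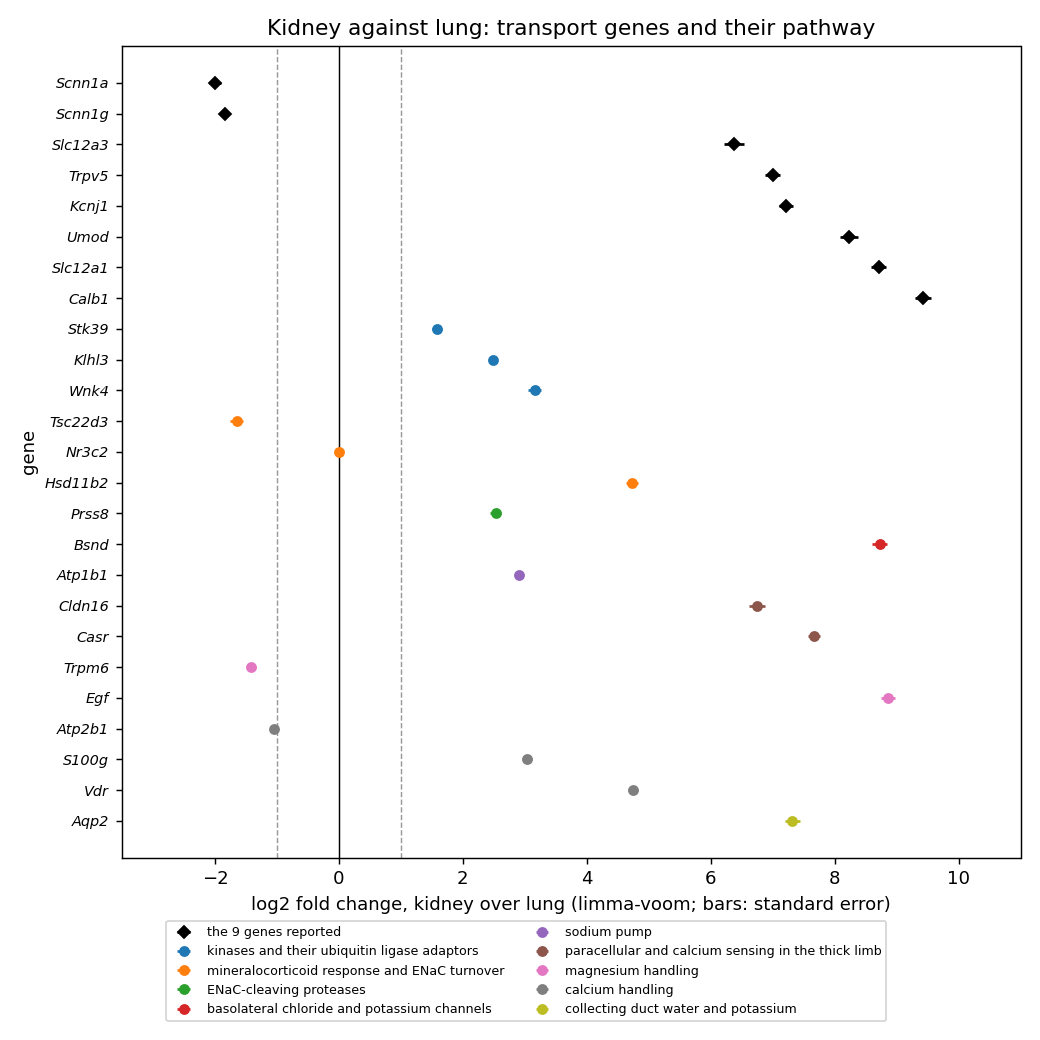
Log2 fold change of kidney over lung with its standard error from limma-voom for 8 of the 9 genes (black) and for the tested genes of the pathway list that are described in the text, coloured by role. Dashed lines mark the threshold of 1 in either direction. *Scnn1a*, *Scnn1g*, *Tsc22d3*, *Trpm6* and *Atp2b1* lie left of it, and the fitted values of genes near 0 in lung depend on the value given to a count of 0.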

How the data were processed

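RNA-seq libraries of kidney, lung and liver from 47 strains were used, grouped by the tissue in the labels. The authors sequenced 50-base single-end reads from ribosome-depleted total RNA, aligned them with STAR 2.5.3a to pseudo-genomes made for each strain from Build37 (mm9 in the submitters' processing notes) and quantified uniquely aligned reads with RSEM. The authors deposited expected counts per gene, on the scale of reads, of which 25 values differed from a whole number by more than 1e-09. The deposited TPM of the authors scales these by transcript length and library, and the deposited FPKM of the authors was read but not used.

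Expected counts were rounded and scaled by TMM (edgeR 4.0.16), and limma-voom (limma 3.58.1 under R 4.3.3) was run on genes above 1 CPM in 30% or more of the libraries. Strain entered the design as a replicate block: its 3 organs were taken from the same mouse. Deviations of the same mouse from the tissue means had a median r across genes of 0.216 for kidney and lung, 0.213 for kidney and liver and 0.177 for lung and liver, against -0.00771 to -0.00458 for different mice. No batch is given in the labels, so the batch term of the study was left out. P-values from limma-voom set a difference between tissues against the spread of such differences from mouse to mouse, estimated over the 3 tissues. Depth was 1738046 to 42158454 counts per library. For correlations, TMM-normalized TPM was rank-transformed to normal scores (Blom, 0.375) and tested with 100000 two-sided permutations, and members with at most 3 counts in over 50% of libraries were left out. Correlation q-values are over the pairs computed. Intervals are exact 95% intervals of summed counts, and for ratios of summed counts normal on the log scale.

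The members, the pathway list and the marker lists were chosen with earlier results of these data known. Named genes were the members, the 3 genes most like each member that passed the level of the filter, the 2 genes with the highest mean kidney TPM of each role of the pathway list and those called higher in lung. *Klhl3* was named after its values were seen. Some genes under this rule are not reported here. Positions are from GENCODE vM1 and promoters from RefSeq. Scripts were tested on simulated data. Alternatives covered thresholds, scaling, filtering, the block, the samples, and DESeq2 1.42.0 or edgeR in place of limma. Total counts, summed counts and the leaving out of strains CC020, CC032 and CC036 were added after seeing the data. Other steps ran in Python 3.11.15 (scipy 1.17.1, numpy 2.4.6). Genotypes and chromatin accessibility were not analysed here.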

Additional observations from a re-analysis of the deposited data

How the results depend on the processing

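The 8 tested members between kidney and each other organ, with *Scnn1a* and *Scnn1g* between lung and liver, make 18 comparisons. Over 12 alternatives these gave 216 values, of which 208 kept their direction and their side of the threshold and 0 reversed. Most of these values belong to the 6 members that pass the low-count filter only through kidney. Those members had to differ from lung and liver, so their steadiness is no evidence of robustness. The 6 members near 0 in both lung and liver were not compared between these organs, where the fitted sign can turn with the scaling (*Slc12a1* at -0.74 with TMM and 0.62 with total counts). The 8 values that changed were all for *Scnn1a* between kidney and liver, where the difference passed the threshold. The number of genes called in all was 5591 for kidney against lung, 4412 for kidney against liver and 6664 for lung against liver. It rose to 11016, 10665 and 11343 without a minimum fold change. For kidney against liver it was 6776 on total counts and 6655 on log2(TPM + 0.1), and for lung against liver it was 12142 without the low-count filter, where 22652 genes were tested. Without the replicate block that pairs the tissues of a mouse, the counts were 5618, 4451 and 6693, the ENaC ratio of alpha to gamma had q = 0.0732, and no call on a member changed. Scaling moved the balance of the calls: of those between kidney and liver, 57.1% were higher in kidney with TMM, 85.5% with total counts and 83.7% on log2(TPM + 1). The percentages higher in kidney than in lung were 44.8%, 31.2% and 29.5%, and those higher in lung than in liver 56.5%, 86.3% and 87.4%. With total counts, the median fold change of all tested genes shifted by -0.43 (kidney against lung), 0.95 (kidney against liver) and 1.38 (lung against liver) on the log2 scale.

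Correlations of members across kidneys passed in 5 pairs, in 17 on TPM without TMM, and in 1 after a fit on 2 marker lists, with Spearman's rho, or without CC020. The pair that reversed on TPM without TMM was *Slc12a1* and *Trpv5*, at 0.0951. Among ENaC subunits in lung, 1 pair passed on TPM without TMM in place of 0. In lung, 3 members passed the expression filter with a threshold of 0.5 in place of 2. *Scnn1b* was unresolved in 42 kidney libraries and was left out of the correlations there. What part depth or its 3 transcripts play in its low counts was not tested.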
